A study of Gallus gallus with 6 samples.

Results

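The TCF21 regions described here lie near the ends of chicken chromosomes 1 to 10, the large numbered chromosomes of this bird. Peaks of 3 immunoprecipitation lists were joined where they overlapped by 1 bp or more, and a joined region was kept where it held a peak of every list. A region was counted as an end region where its midpoint lay within 2 Mb of position 1 (the start end of a chromosome) or within 2 Mb of the largest peak end on that chromosome (its last end). This gave 1635 end regions, of 25990 regions on chromosomes 1 to 10 and 37420 in the whole genome. The other 24355 regions of these chromosomes are called interior regions. Among the regions kept, the choice of end regions used position alone. Being called in every list does depend on signal, for end and interior regions alike.

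TCF21 is a transcription factor of the basic helix-loop-helix family, whose members pair up and recognise short DNA words called E-boxes. It is active in mesenchymal cells and is known as a marker of the precursors of white fat cells. The cells were preadipocytes from chicken adipose tissue that stably overexpressed TCF21 from the construct named LV-TCF21. Every sample had 24 h in differentiation medium with 300 µM oleic acid, so no untreated cells and no cells without the construct were compared. The series has 3 TCF21_IP samples, precipitated with an anti-HA antibody, and 3 input DNA samples with no antibody. The overexpressed factor carries the limit that its level is not that of the cell's own TCF21, and the labels do not tell if replicates were grown as separate cultures.

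A chromosome ends in telomeric repeats, and the DNA next to them, the subtelomere, is often rich in repeats and in copies shared between chromosomes. Assemblies are frequently incomplete there. Bird genomes combine a few large chromosomes with many small, gene-rich ones, and the short arm of chicken chromosome 4 descends from a formerly separate small chromosome that fused to it. These ends are therefore a place where binding maps could differ from the rest of a chromosome, both in the cells and in what can be mapped. The positions below are those of the deposited lists. No label or header used here names their genome build, so no gene or base sequence was assigned to a region.

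The data are 3 peak lists, 1 per immunoprecipitation, numbered 1 to 3 as in their peak names. The lists held 41409, 38855 and 39570 peaks on chromosomes 1 to 10. The pileup is the number of fragments stacked at a peak's summit, and the fold enrichment compares it with the local control after adding 1 to each, both being values of the authors' peak caller. The input level was recovered from them as (pileup + 1) / fold enrichment − 1. The number of reads per sample is unknown. To cancel depth, pileup, fold enrichment and input level were divided in each list by that list's mean over the regions of chromosomes 1 to 10, and such values are called relative. An SD with n = 3 is over lists and may be technical.

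Where the lists are silent at an end, no region could be found. The first peak of any list lay between 0.428 and 49.9 kb from position 1 on chromosomes 1, 2, 3, 4, 5, 7 and 8. On chromosomes 6, 9 and 10 it lay much farther in, at 524, 562 and 566 kb. No list has a peak in the first 500 kb of these 3 chromosomes. The last ends are set by the outermost peak, so they have no such empty margin by definition. On chromosomes 2, 3, 5, 7 and 10 the outermost shared region itself held the peak that sets the last end. Its distance there, fixed by its own width, was 0.193 kb on chromosome 2, 0.196 kb on 7 and 0.244 kb on 5. It was 0.261 kb on chromosome 3 and 0.748 kb on chromosome 10. At the other last ends the outermost shared region lay between 29.1 kb (chromosome 9) and 147 kb (chromosome 8) from the end.

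**Figure D1:**
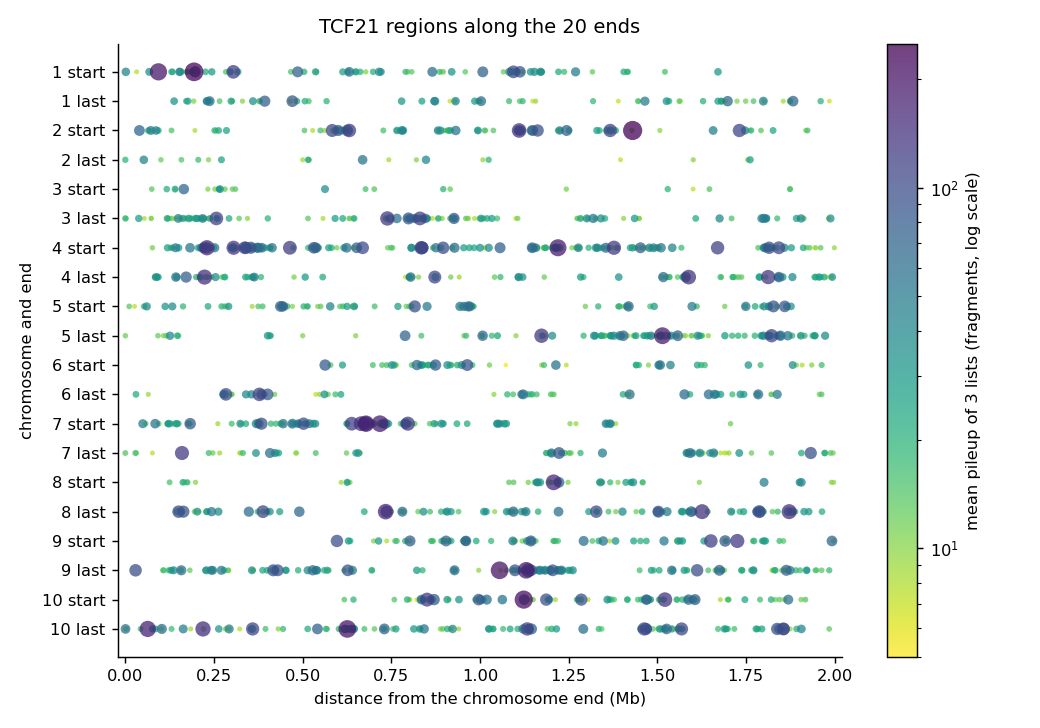
Each row is 1 of the 20 chromosome ends, and each dot is 1 TCF21 region found in all 3 lists at its distance from that end in Mb. Dot size and colour give the mean pileup of the 3 lists (log colour scale). The start ends of chromosomes 6, 9 and 10 are empty for over 0.5 Mb, and the rows of 2 last and 3 start hold the fewest dots.

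The question asked of the ends is whether TCF21 regions were denser, stronger, wider or more closely spaced there than inside the same chromosomes. None of these differences passed the test over the 10 chromosomes. The ends of a chromosome held 1.04 times as many regions per Mb as its interior (geometric mean over 10 chromosomes), with single chromosomes from 0.625 to 2.07 times. Pileup was 0.944 times, fold enrichment 0.972 times, input level 0.950 times and region width 1.02 times the interior value. Of these 6 measures, spacing included, none passed an adjusted p of 0.05 and none had an unadjusted p under 0.05.

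The density comparison gave a mean log2 ratio of 0.06 ± 0.44 (SD over 10 chromosomes; two-sided exact sign-flip permutation test, p = 0.660, adjusted p = 0.727 over the 6 measures). Its 95% interval ran from 0.853 to 1.30 times, so differences of that size were not resolved. The ends were denser on 7 of 10 chromosomes. The sign and size of the mean changed with single chromosomes and with the length of the ends. Without chromosome 4 the ratio was 0.967 (exact sign-flip permutation test, adjusted p = 0.839), and without chromosome 6 it was 1.10 (adjusted p = 0.389). With ends of 1 Mb and 4 Mb it was 0.990 and 0.981. With the start end counted from the first peak it was 1.08 (exact sign-flip permutation test, adjusted p = 0.555).

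Pooling all 40 Mb of ends and all 715 Mb of interior gave another picture. The ends then held 40.9 regions per Mb and the interior 34.1, a ratio of 1.20. In peaks, the ends held 63.7, 59.2 and 60.3 per Mb in lists 1, 2 and 3, and the interior 54.4, 51.0 and 52.0. The pooled ratio of peak density was 1.16 ± 0.00728 (SD, n = 3). It was above 1 by more than the spread between lists, which does not cover the variation along and between chromosomes. The ends take 2.04% of the span of chromosome 1 and 19.6% of that of chromosome 10, and the interiors of these 2 chromosomes held 30.8 and 49.0 regions per Mb. With every chromosome given the same weight, the 10 interiors averaged 38.3 ± 6.46 regions per Mb and the ends 40.9 ± 11.7 (SD over 10 chromosomes), a ratio of 1.07. Paired by chromosome, peak density at the ends was 1.03, 1.01 and 1.03 times that of the interior in lists 1, 2 and 3. The excess of the pooled values thus shrank once each chromosome counted equally or was compared with itself.

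**Figure D2:**
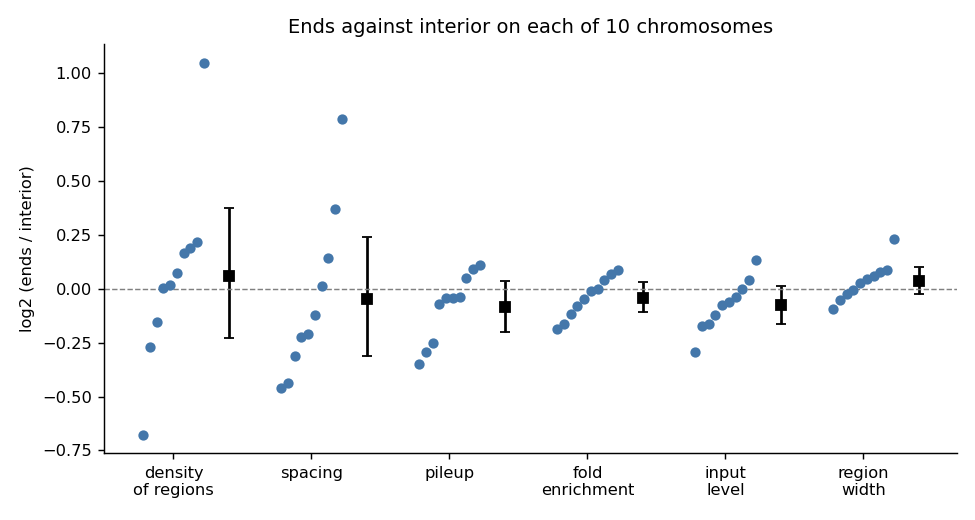
Each dot is the log2 ratio of ends to interior on 1 of 10 chromosomes, for 6 measures; black squares are the means with their 95% intervals from the exact sign-flip test. Every interval includes 0, and the single chromosomes spread widest for density and spacing.

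No difference in strength at the summit passed the test either. The mean pileup of end regions was 33.4, 30.9 and 26.3 fragments in lists 1, 2 and 3, and that of interior regions 33.9, 31.5 and 26.8. The pooled ratio of means was 0.982 ± 0.00224 (SD, n = 3), slightly below 1 in each list. The pooled medians were 23, 20 and 17 fragments at end regions and 23, 21 and 17 at interior regions. Paired by chromosome, the ratio was 0.944 (95% interval 0.870 to 1.02; exact sign-flip permutation test, p = 0.162, adjusted p = 0.390), and the ends were lower on 7 of 10 chromosomes. The 3 lists gave nearly the same ratio, 0.944, 0.943 and 0.945. Fold enrichment averaged 10.5, 10.3 and 10.2 at end regions and 10.8, 10.4 and 10.4 at interior ones. Its paired ratio was 0.972 (95% interval 0.927 to 1.02; exact sign-flip permutation test, p = 0.209, adjusted p = 0.390).

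The input level, the local control value that the caller set against each peak, was lower at the ends on 8 of 10 chromosomes. Its ratio of 0.950 (95% interval 0.893 to 1.01) had the smallest p of the 6 measures and did not pass the threshold (exact sign-flip permutation test, p = 0.0879, adjusted p = 0.390). The lists gave 0.966, 0.948 and 0.935. Pooled over chromosomes, the mean input level of end regions was 2.34, 2.17 and 1.68 fragments in lists 1, 2 and 3. That of interior regions was 2.34, 2.22 and 1.73. The ratios were 1.00, 0.976 and 0.972, so the pooled means of list 1 were nearly equal. The pooled medians were 2.07, 1.90 and 1.51 fragments at end and interior regions alike. The level stood at the lowest value the caller allows in 4.16%, 6.42% and 3.79% of end regions and in 3.17%, 3.63% and 2.53% of interior regions, a higher share at the ends in each list. Without the regions at that floor in any list the paired ratio was 0.979 (exact sign-flip permutation test, p = 0.50, adjusted p = 0.60).

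Width and spacing gave no call either. End regions had a median width of 556 bp (interquartile range 426 to 777 bp) and interior regions one of 537 bp (417 to 732 bp). The paired ratio of median widths was 1.02 (95% interval 0.983 to 1.07; exact sign-flip permutation test, p = 0.260, adjusted p = 0.390). Of the end regions 117 (7.16%) held more than 1 peak in some list, and of the interior regions 5.84% did. The nearest other region lay a median of 4139 bp away at the ends and 4649 bp away in the interior, and 72.8% and 70.6% had a neighbour within 10 kb. The paired ratio of spacing was 0.969 (95% interval 0.807 to 1.18; exact sign-flip permutation test, p = 0.727, adjusted p = 0.727).

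The 3 lists matched each other at the ends about as closely as in the interior. Joining all peaks gave 3344 regions at the ends, and 1635 of them (48.9%) held a peak of every list, against 46.4% of all joined regions on chromosomes 1 to 10. A peak of a single list made up 34.6% of the joined regions at the ends and 36.6% in the interior. In 82.0% of end regions the summits of all 3 lists fell within 100 bp, and in 83.4% of interior regions. Across end regions Spearman's rho between the pileups of 2 lists was 0.888 ± 0.00316 (SD over 3 pairs of lists) and across interior regions it was 0.895 ± 0.00203. Fold enrichment had a rho of 0.759 ± 0.00742 and 0.775 ± 0.00415. These are descriptions across regions, which share libraries. An enrichment of 10-fold or more in all 3 lists was found at 363 end regions (22.2%), against 23.5% of all regions on these chromosomes. A q-value of at most 1e-05 in every list was found at 1043 end regions (63.8%), against 63.8% of all. Both shares of end regions were near those of the chromosomes as a whole.

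The 20 ends differed widely from each other. They held a median of 77 regions each, from 21 at the last end of chromosome 2 to 163 at the start end of chromosome 4, a 7.76-fold range. Of the 20 ends, 11 were denser than the interior of their own chromosome and 9 were less dense, from 0.338 to 2.67 times. The start ends of chromosomes 9 and 10 were among the 9 at 36.5 and 40 per Mb, a count that includes their stretch with no peak. From the first peak to the 2 Mb limit they held 50.8 and 55.8 per Mb, above the interior values of 44.9 and 49.0. With every start end counted that way, 13 ends were denser and 7 less dense. The spread was like that of the interior itself. Windows of 2 Mb laid over the interior, 352 in number, held a median of 66.5 regions (10th to 90th percentile 28.1 to 111, range 2 to 151). The number of regions had a coefficient of variation of 43.3% over ends and 46.1% over these windows. Of the 20 ends, 14 fell between the 10th and 90th percentile of the windows, 2 fell under it and 4 above.

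**Figure D3:**
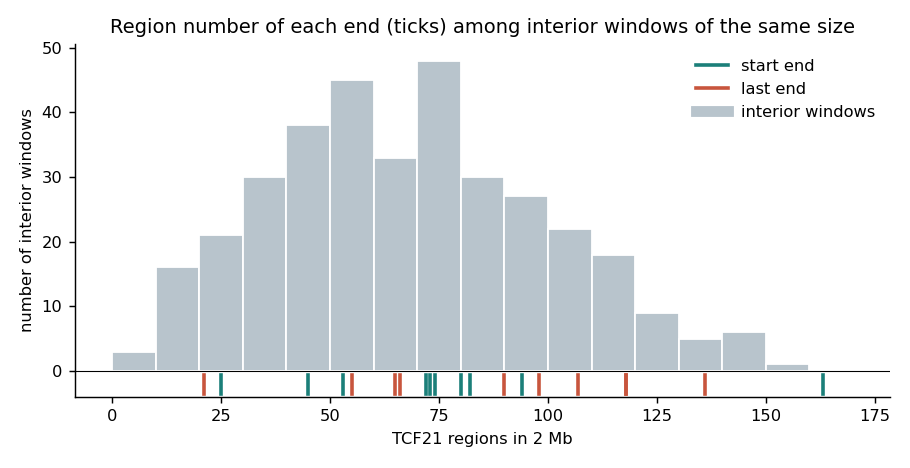
Grey bars count the 352 interior windows of 2 Mb by the number of TCF21 regions they hold, and each tick under the axis is 1 of the 20 ends. The ticks run from 21 to 163 regions, and 1 tick, the start end of chromosome 4, lies beyond the fullest window with 151.

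The start end of chromosome 4 was the densest. It held 163 regions, or 81.5 per Mb, against 30.5 per Mb in the interior of chromosome 4, a ratio of 2.67. Lists 1, 2 and 3 had 267, 228 and 240 peaks there (245 ± 19.98, SD, n = 3). All 43 windows of 2 Mb in the interior of chromosome 4 held fewer regions. Density stayed high beyond the 2 Mb limit, at 53.0 per Mb between 2 and 6 Mb. Its regions were also the widest of any end, with a median of 637 bp, and 86.5% had a neighbour within 10 kb. Relative pileup was 1.17 ± 0.0260 there and 1.01 ± 0.00379 in the interior of the chromosome, while the input level was 1.05 ± 0.0586 and 1.02 ± 0.00852 (SD, n = 3). The difference in pileup was larger than the spread between lists, and the difference in input level was not. That spread covers the same positions in 3 lists and not the variation along the chromosome. Single interior windows of 2 Mb of chromosome 4 ran from 0.478 to 1.30 in relative pileup. Between 2 and 6 Mb from this end it was 1.11 ± 0.0184 (SD, n = 3). Of its regions, 46 (28.2%) were enriched 10-fold or more in all 3 lists, against 23.5% of all regions on chromosomes 1 to 10. It was the highest share of the 20 ends, and the difference was not tested.

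The densest 100-kb windows of all ends, counted inward from the end, were at 3 chromosomes. The window at chromosome 4, 300001 to 400000, held 23 regions, from 31, 28 and 30 peaks in lists 1, 2 and 3. The window at chromosome 9, 22870500 to 22970499, held 20, from 26, 23 and 25 peaks. A pair of windows at the last end of chromosome 3 held 17 each, at 111078834 to 111178833 and at 110378834 to 110478833. The 42 windows with at least 10 regions, of 400, held 521 end regions (31.9%) and lay at 14 of the 20 ends. A large share is partly built in, since these windows were picked for holding many regions. The 79 windows (19.8%) that held none include the empty stretches before the first peak at some start ends. No such shares were computed for interior windows, so whether the ends differ from the interior in them was not tested.

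A pair of ends was sparse. The last end of chromosome 2 held 21 regions, or 10.5 per Mb, against 31.1 per Mb in the interior, and its lists had 37, 38 and 40 peaks. The start end of chromosome 3 held 25 regions, or 12.5 per Mb, against 33.9, with 42, 38 and 43 peaks. The numbers were low in every list. Of the joined regions there, 36.8% and 37.9% held a peak of every list, and the other ends ranged from 42.9% to 57.1%. Neighbours were far apart, with a median spacing of 28956 bp at the last end of chromosome 2 and 19570 bp at the start end of chromosome 3. The peaks were also low in pileup: relative pileup was 0.608 ± 0.0229 and 0.593 ± 0.00793 (SD, n = 3), the lowest of the 20 ends. Relative fold enrichment was 0.835 ± 0.0661 and 0.676 ± 0.0516. The input level was 0.613 ± 0.0223 at the first and 0.862 ± 0.0937 at the second. The interior next to them, 2 to 6 Mb from the end, was also sparse and low on chromosome 2, with 19.0 regions per Mb, a pileup of 0.756 ± 0.00881 and an input level of 0.688 ± 0.0314. On chromosome 3 it was not, with 29.8 regions per Mb, a pileup of 1.07 ± 0.0113 and an input level of 1.03 ± 0.0744. Of the 100-kb windows of these ends, 16 and 19 of 20 held a peak of some list.

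The start and last end of a single chromosome could differ widely. Chromosome 3 had 12.5 regions per Mb at its start end and 59.0 at its last end, a 4.72-fold difference and the widest of the 10. Only 3 of the 53 interior windows of chromosome 3 had fewer regions than the start end, and 50 had fewer than the last end. Chromosome 2 had 41.0 and 10.5, chromosome 8 had 22.5 and 49.0, and chromosome 9 had 36.5 and 68.0. The ends of chromosome 1 were nearly alike, at 36.0 and 33.0 per Mb. Those of chromosome 6 held 26.5 and 27.5 with the full 2 Mb counted. From the first peak to the 2 Mb limit, the start end of chromosome 6 held 35.9 per Mb and that of chromosome 9 held 50.8. On chromosome 6 both ends were under the 43.2 per Mb of the interior. More regions lay at the start end on 4 chromosomes and at the last end on 6. Over the 10 chromosomes the densities of the start and last ends had a Spearman's rho of −0.286, a description of 10 pairs. The tally and the rho include the stretches with no peak at some start ends.

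**Figure D4:**
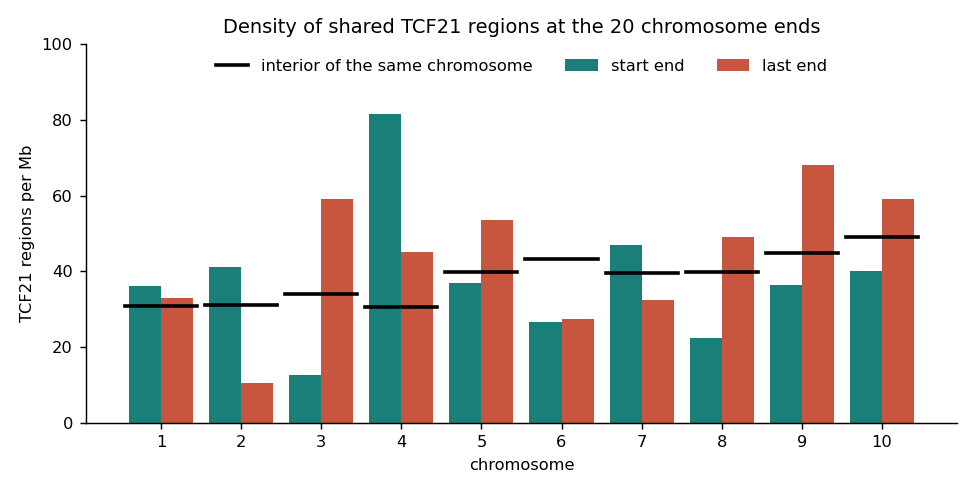
Bars give TCF21 regions per Mb in the outer 2 Mb at the start end and the last end of each chromosome, and black lines the density of the interior of the same chromosome. The ends of chromosomes 1 and 4 all stand above their interiors of 30.8 and 30.5 per Mb. Those of chromosome 6 both stand below 43.2, and those of chromosomes 2, 3, 5, 7, 8, 9 and 10 lie on both sides.

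Regions were unevenly placed within the ends as well. Over all ends, 788 regions lay in the outer 1 Mb and 847 in the next. By bins of 0.5 Mb from the end, density was 38.1, 40.7, 44.3 and 40.4 per Mb, and it fell to 28.8 per Mb just beyond the limit, between 2 and 2.5 Mb, and was 39.0 in the bin after. The outermost bin, and so the outer 1 Mb, includes 3 start ends that held no peak in their first 500 kb. With those stretches counted, no steady rise or fall toward the end was seen. Single ends were lopsided. At the start end of chromosome 7, 77 of 94 regions lay in the outer 1 Mb, while at the last end of chromosome 5 it was 16 of 107 and at the start end of chromosome 8 it was 10 of 45.

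Pileup and input level moved together from end to end. Relative input ran from 0.595 ± 0.00851 at the last end of chromosome 7 to 1.23 ± 0.0472 at the start end of the same chromosome (SD, n = 3). Relative pileup was 0.772 ± 0.00760 and 1.19 ± 0.0197 at these ends, while fold enrichment was 1.09 ± 0.0298 and 1.00 ± 0.0195. Chromosome 2 had the same order in input, 1.22 ± 0.0474 at the start end and 0.613 ± 0.0223 at the last end, with pileups of 1.17 ± 0.00145 and 0.608 ± 0.0229. At the last ends of chromosomes 1 and 3 the input was 0.789 ± 0.0272 and 0.761 ± 0.0280, and pileup was 0.776 ± 0.00629 and 0.783 ± 0.0231. The differences between these high and low ends exceeded the spread between lists. That spread covers the same positions in 3 lists and not the variation from stretch to stretch.

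The levels of several of these ends were shared by long stretches of the interior beside them. The 10 interior windows of 2 Mb nearest to the start end of chromosome 2 had a median relative input of 1.29 (1.17 to 1.35), and the 10 nearest to its last end one of 0.787 (0.633 to 0.849). Next to the last ends of chromosomes 1 and 3 the medians were 0.762 (0.658 to 0.789) and 0.756 (0.657 to 1.02). Input was thus also high in the interior beside the start end of chromosome 2, and low beside the last ends of chromosomes 1, 2 and 3. At the last end of chromosome 2 the input of 0.613 still lay below all 10 nearest windows, the lowest of which had 0.633. Some other ends differed more from the nearest windows, at least in part. At the last end of chromosome 7 the input of 0.595 lay below all 10 nearest windows (median 1.03, range 0.783 to 1.13). Those windows do not cover the whole stretch next to this end. At 2 to 6 Mb from it the input was also low, at 0.751 ± 0.0584. At the start end of chromosome 1 the input of 1.05 ± 0.0156 lay above all 10 (median 0.762, range 0.680 to 0.795). Its high values lay mainly in the outer 1 Mb, which held 46 of its 72 regions. Most of its regions farther in had a relative input under 1.

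Over 20 ends, pileup and input level had a Spearman's rho of 0.869, density and input one of 0.542, and density and pileup one of 0.660. Over the 352 interior windows the same values were 0.712, 0.586 and 0.538. These are descriptions, with no test: the values come from the same 3 lists, and the input level is computed from the pileup. Low input did not always come with few regions, since the last end of chromosome 3 had 59.0 per Mb.

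**Figure D5:**
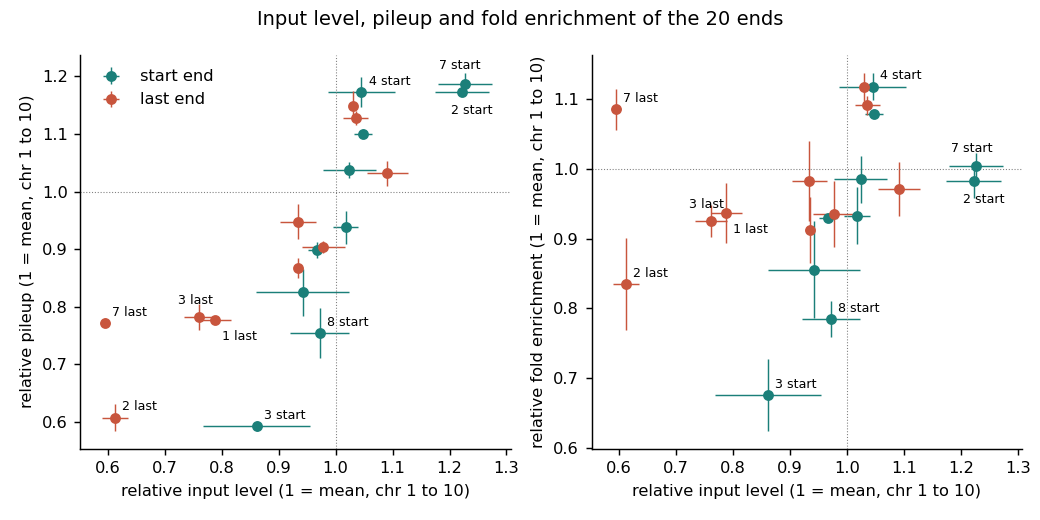
Each point is 1 chromosome end, with its relative input level on the x axis and its relative pileup (left) or fold enrichment (right) on the y axis, as means over the 3 lists with SD bars; 1 is the mean of chromosomes 1 to 10. Pileup rises with input from 2 last to 7 start, while 7 last, with the lowest input of 0.595, has a fold enrichment of 1.09.

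Strength also differed between ends of like input level. At the start of chromosome 8 regions had a relative pileup of 0.755 ± 0.0429 and a fold enrichment of 0.785 ± 0.0262 at an input of 0.972 ± 0.0512. Its regions were the narrowest of the 20 ends, with a median of 434 bp. The last end of the same chromosome had a pileup of 1.15 ± 0.0258 and a fold enrichment of 1.12 ± 0.0207 at an input of 1.03 ± 0.00689. It was not alone, since the last end of chromosome 10 had a pileup of 1.13 ± 0.0119 at an input of 1.04 ± 0.0217. The start end of chromosome 3 had the lowest fold enrichment of all ends, 0.676 ± 0.0516, at a lower input of 0.862 ± 0.0937.

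By pileup, the strongest end regions came close to the strongest of the interior, with a highest mean of 242 fragments against 257. By fold enrichment the gap was wider, with a highest mean of 61.1 against 80.7. These are the highest of 1635 end regions and of 24355 interior regions, so the interior had many more from which a highest could come. Of the 100 regions of chromosomes 1 to 10 with the highest mean pileup, 11 were end regions, and of the 100 with the highest mean fold enrichment 7 were, while end regions made up 6.29% of all. The highest pileup of an end region was at chromosome 2, 1430247 to 1431219, a region of 973 bp that lay 1431 kb from position 1. Its summits carried 240, 254 and 232 fragments in lists 1, 2 and 3, and the 3 summits fell within 12 bp. Its fold enrichment was 55.3, 36.6 and 42.2, and it ranked 4 of 25990 by mean pileup. By mean fold enrichment it ranked 286, with an input level 2.25 times the mean of chromosomes 1 to 10. The region at chromosome 1, 193477 to 194491, was only 194 kb from position 1. It carried 239, 239 and 214 fragments, with fold enrichments of 55.0, 45.6 and 82.2. By mean pileup it ranked 7 and by mean fold enrichment 42. These regions had like pileups in every list.

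At 3 ends of chromosomes 9 and 10 the strongest region also had over 200 fragments on average. The region at chromosome 10, 1123065 to 1124162, near the start end, carried 227, 203 and 217 fragments, and that at chromosome 10, 19730833 to 19732270, near the last end, carried 215, 215 and 182. The region at chromosome 9, 23013960 to 23015781, near the last end, carried 217, 218 and 179 fragments with summits within 3 bp. Its fold enrichment ran from 36.1 in list 1 through 55.7 in list 2 to 88.7 in list 3, as its input level went from 5.04 through 2.93 to 1.03 fragments. Fold enrichment varied between lists far more than pileup at such regions. The highest mean fold enrichment of an end region, at chromosome 5, 58268350 to 58269441, was 61.1 ± 29.4 (SD, n = 3), from 28.3, 85.2 and 69.8. Its pileup was 194, 187 and 174 fragments. The 5 highest mean fold enrichments of end regions ran from 57.0 to 61.1, a range smaller than the SD of each of them, so their order is not resolved. The steadiest of them between lists, at chromosome 8, 1207113 to 1208546, had 60.8, 58.4 and 51.7.

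The strongest regions of the remaining ends carried fewer fragments. At the start end of chromosome 4, the region at chromosome 4, 1219160 to 1221108, was 1949 bp wide and carried 202, 193 and 173 fragments. At the start end of chromosome 7, the region at chromosome 7, 717381 to 718751, carried 188, 175 and 178. The densest end therefore did not hold the strongest region, as its best one ranked 48 by mean pileup. At the last end of chromosome 8, the region at chromosome 8, 29197712 to 29198527, carried 161, 162 and 148 fragments, and at the last end of chromosome 4, that at chromosome 4, 91057244 to 91058120, carried 150, 153 and 137. The last end of chromosome 3 reached 132, 145 and 122 fragments at chromosome 3, 110539167 to 110540175. The mean pileups of these 3 ran from 133 to 157 fragments.

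Several ends peaked at a like, lower level. The last end of chromosome 7 had 129, 131 and 122 fragments at chromosome 7, 36739885 to 36741078, where its enrichment was 36.9-, 68.6- and 65.4-fold. On chromosome 9 the start end had 139, 136 and 106 at chromosome 9, 1725480 to 1726335. The last end of chromosome 6 had 144, 101 and 105 at chromosome 6, 35044128 to 35045376. List 1 was high at the last of these. The start end of chromosome 5 had 92 fragments in every list at chromosome 5, 815705 to 817152. On chromosome 6 the start end had 88, 102 and 73 at chromosome 6, 963919 to 964758, and the last end of chromosome 1 had 100, 85 and 70 at chromosome 1, 195730403 to 195731303.

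The sparse ends had no strong region. At the start end of chromosome 3 the highest pileup was 74, 66 and 60 fragments, at chromosome 3, 164865 to 165392. At the last end of chromosome 2 it was 57, 57 and 50 fragments, at chromosome 2, 148854844 to 148856586. These 2 regions ranked 2465 and 3513 by mean pileup. The 2 ends held only 25 and 21 regions, so there were few from which a highest could come.

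The outermost regions ranged from weak to strong. Of the 20 outermost regions, 10 had a mean pileup under 20 fragments, the median of all end regions. The outermost region of chromosome 2, at 149524648 to 149525033, had 16, 20 and 21 fragments. Its input level was at or near the lowest value the caller allows in each list, and it was enriched 8.73-, 10.9- and 12.5-fold. At chromosome 1, 1298 to 1833, the outermost of all start ends, it had 40, 42 and 41 fragments. Its input level was high and uneven, at 6.72, 2.56 and 3.77 fragments, and its fold enrichment was 5.31, 12.1 and 8.81. At chromosome 9, 24041082 to 24041812, the outermost region of the last end had 105, 95 and 95 fragments. At the start end of that chromosome, the first shared region after the empty stretch, at 596533 to 597241, had 123, 89 and 76 fragments. So a strong region could be the first or last of a chromosome.

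The widest end region was at chromosome 2, 598712 to 602170, 3459 bp long with 5 peaks, and carried 93, 76 and 60 fragments. At chromosome 9, 22863346 to 22866761, a region of 3416 bp had summits that lay up to 1398 bp apart between lists, with 79, 97 and 84 fragments. The third, at chromosome 7, 34965740 to 34968845, held 6 peaks over 3106 bp, with 101, 100 and 78 fragments and enrichments of 38.0-, 52.5- and 42.0-fold. All 3 held more peaks than there were lists.

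The highest relative input levels of end regions were at the start of chromosome 7. The region at chromosome 7, 680500 to 681381, had an input level of 8.40, 5.12 and 6.03 fragments, 3.13 times the mean of chromosomes 1 to 10, under a pileup of 72, 62 and 49. A neighbour at chromosome 7, 664568 to 665553, had 2.35 times the mean input under a pileup of 145, 157 and 120 fragments. The third, at chromosome 1, 153986 to 154647, had 2.32 times the mean input and 30, 37 and 27 fragments.

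The end region nearest to the 2 Mb limit, at chromosome 4, 1999470 to 1999761, had 8, 10 and 10 fragments. The interior region nearest to it, at chromosome 8, 2001279 to 2001833, had 30, 25 and 29.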

How the data were processed

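Chromatin immunoprecipitation sequencing had been done on 3 TCF21_IP and 3 input DNA samples, and the deposited data are 3 peak lists. Per the submitters' processing notes, Trimmomatic 0.36, STAR 2.5.3a, MACS2, bedtools and HOMER were used, with no role given. Per the file headers, the authors deposited for each peak its position, its width in bp, its pileup (a signal in fragments, 100% whole numbers), a fold enrichment (a ratio), and a significance on the −log10 scale, as p-value and q-value. The sources used here name neither the build nor the calling threshold nor the control behind a list. The lists were treated as unnumbered samples of the immunoprecipitation group.

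With Python 3.11.15, numpy 2.4.6, pandas 2.3.3 and scipy 1.17.1, peaks were joined into regions, and a list with several peaks in 1 region was represented by the one of highest fold enrichment. As a check, a Poisson p-value was computed again with pileup and input level, and it came within 1% plus 0.01 of the deposited −log10 p for 99.9% of peaks of each list. The input floor was 0.948, 0.924 and 0.744 fragments in lists 1, 2 and 3, with a tolerance of 0.5%. Per chromosome, the value over both ends was divided by that over the interior, and the mean log2 ratio over 10 chromosomes was tested with a two-sided exact sign-flip permutation test (1024 sign patterns, smallest p 0.00195), Benjamini-Hochberg adjusted over 6 measures. Density and spacing, and pileup, fold enrichment and input level, are not independent of each other. Chromosomes are not replicates of the experiment, so the p-values describe how uniform a difference was over chromosomes in these libraries. Over 3 lists the same test cannot go below 0.25 and was not used. Intervals are the shifts that the test does not reject. The joining and the test were tested on simulated data.

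Named are the region of highest pileup at each end, the 5 highest fold enrichments, the 3 widest, the 3 highest input levels, outermost regions, the regions nearest the limit, and the 3 densest windows, with a tie for the third place. The end regions and the measures were chosen with earlier results of these data known. The comparison of ends with their nearest interior windows, and density from the first peak to the 2 Mb limit, were added after seeing the data. Depth is unknown, so no counting interval was computed; pileups started at 3 or 4 fragments, which makes weak values coarse. The E-box share and gene names were not analysed here, since no genome of the files' build was used.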

Additional observations from a re-analysis of the deposited data

How the results depend on the processing

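Each of the 6 measures was recomputed under 21 to 23 alternatives, 130 values in all, and none passed an adjusted p of 0.05 (lowest adjusted p 0.117). An unadjusted p under 0.05 came up in 4 of them: input level without chromosome 2 (exact sign-flip permutation test, p = 0.0195), without list 1 (p = 0.0371) and with ends of 4 Mb (p = 0.0410), and width with a q-value of at most 1e-05 (p = 0.0371, wider on 9 of 10 chromosomes). The direction was kept in 121 and turned in 9. Density turned to a log2 ratio of −0.014 with ends of 1 Mb, −0.028 with ends of 4 Mb and −0.049 without chromosome 4; width turned to −0.013 against the flank 2 to 6 Mb from the ends. Spacing turned to 0.046 against that flank, 0.0034 with a reciprocal overlap of 50%, 0.011 with the start end counted from the first peak, 0.015 without list 3 and 0.00086 without chromosome 7; the cause was not tested. Pileup, fold enrichment and input level were lower at the ends under every alternative run, at −0.104 to −0.054, −0.056 to −0.014 and −0.098 to −0.030. Without each list, density was 0.041 to 0.058 and spacing −0.103 to 0.015; without each chromosome, density was −0.049 to 0.14, spacing −0.14 to 0.00086. Counting only 100-kb windows with a peak gave a log2 density ratio of 0.13 (exact sign-flip permutation test, adjusted p = 0.312). No paired analysis was possible because the list numbers were not matched to replicate numbers; this concerns replicates alone, since ends and interior were paired by chromosome. The E-box share was not run. With 10 chromosomes and 20 ends, differences inside the intervals given could not be resolved.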
